A study of Mus musculus with 12 samples.

Results

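The nuclear-encoded subunits of respiratory complexes I to IV were examined in bone marrow-derived dendritic cells (BMDCs) of young and old mice. Members were chosen by gene symbol alone, as genes whose name begins with Ndufa, Ndufb, Ndufc, Ndufs or Ndufv (but not Ndufaf, the assembly factors), with Uqcr or with Cox4 to Cox8, together with Sdha, Sdhb, Sdhc and Sdhd. This gave 69 of the 24232 genes that could be named on the array, of which 40 belonged to complex I, 4 to complex II, 8 to complex III and 17 to complex IV. Each gene was read at its probe with the highest mean signal, and levels are log2 signals after quantile normalization. Of 81 genes in the reference table that fit the rule, 12 had no named probe, and 3 of these code for protein (Cox5b, Ndufb4b and Ndufb4c).

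The respiratory chain passes electrons from NADH (through complex I) and from succinate (through complex II) to coenzyme Q, then through complex III and cytochrome c to complex IV, which reduces oxygen. Complexes I, III and IV pump protons as they do so, and are built from subunits of both the nuclear and the mitochondrial genome, whereas complex II is built from nuclear genes only and is also an enzyme of the citric acid cycle. Dendritic cells activated with lipopolysaccharide (LPS) are known to lean on glycolysis, and the amount and make-up of the respiratory chain is part of that balance.

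The study compared BMDCs of 4 groups of female C57BL/6 mice, with 3 arrays in each group, designated replicates A, B and C. Young mice were 2 months old with no agent, Young-Abx mice were 2 months old and had received an antibiotic cocktail, Old mice were 24 months old with no agent, and Old-LP mice were 24 months old and had received *Lactobacillus plantarum* (LP). In every group, marrow was cultured with GM-CSF and IL-4 and the cells were then exposed to LPS at 1 µg/ml for 24 h, so all values describe stimulated cells. Each array held RNA of a pool of 3 mice, per the study's methods, and the cells were made in culture from marrow of the treated animals, not taken from tissue. All 12 of the dendritic cell markers examined (such as Itgax, H2-Ab1 and Cd74) were detected above background by all arrays of Young, Young-Abx and Old and 11 of 12 by all arrays of Old-LP, and all 8 macrophage markers (such as Adgre1 and Csf1r) by all 12 arrays.

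The third replicate stood apart from the others. Replicates A and B of all groups shared a slide, replicate C of Young and Young-Abx lay on another and replicate C of Old and Old-LP on another again. Spots well above background made up 61.2% to 66.4% of an A or B array and 37.3% to 46.0% of a C array, and the upper quartile of spot intensity was 670 to 1194 on the former and 87.8 to 249 on the latter. For this reason each result is given over all 12 arrays and, beside it, on the first slide alone (replicates A and B of each group). The study describes its sets as independent, but the labels do not tie the letters to separate pools of mice, and if A and B shared a pool, the errors on the first slide are technical and too small.

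Subunit genes of all complexes were readily detected, and most differed little between groups. Of 69 genes, 65 were well above background on all arrays. The others were Ndufa4l2, which missed this on 2 arrays, and Cox7b2, Cox8b and Cox8c, isoforms known from testis or muscle, which were not well above background on any array. In limma's moderated test with Benjamini-Hochberg adjustment over all probes, no subunit gene passed an adjusted p of 0.05 with an absolute log2 fold change of 0.5 in any of the 6 comparisons between groups. For Old against Young, 0 of 69 were called where 0.904% of all named genes were. For Young-Abx against Young the share of named genes was 0.475% and for Old-LP against Old 0.512%, again with 0 of 69. The smallest adjusted p (limma) of any member was 0.319, 0.271 and 0.446 in these comparisons. At an unadjusted p of 0.05 and the same fold change, 2, 1 and 3 members passed, against 6.83%, 4.44% and 6.67% of named genes. In the remaining comparisons 0 of 69 were called as well, where the share of named genes was 0% (Old-LP against Young), 0.198% (Old-LP against Young-Abx) and 0.00413% (Old against Young-Abx), and 0, 1 and 0 members passed at the unadjusted p (background 0.941%, 3.96% and 1.61%).

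Among members above background, Ndufa4l2 and Cox6a2 had the largest differences between groups in Old against Young, Young-Abx against Young and Old-LP against Old. Both are tissue-restricted isoforms of common subunits. Ndufa4l2 is a relative of Ndufa4 known as a gene induced under low oxygen, and Cox6a2 is the heart and muscle form of the complex IV subunit that Cox6a1 encodes elsewhere. In the Young arrays Ndufa4l2 read 6.97, 7.12 and 7.51 (replicates A, B and C), and in Young-Abx 5.36, 4.87 and 5.31. Old read 4.75, 4.81 and 6.88, and Old-LP 7.00, 6.86 and 7.40. All Young-Abx arrays and Old replicates A and B were thus below every Young and Old-LP array, whereas Old replicate C lay close to them, so the groups did not overlap between Old and Young but did between Old-LP and Old.

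**Figure D1:**
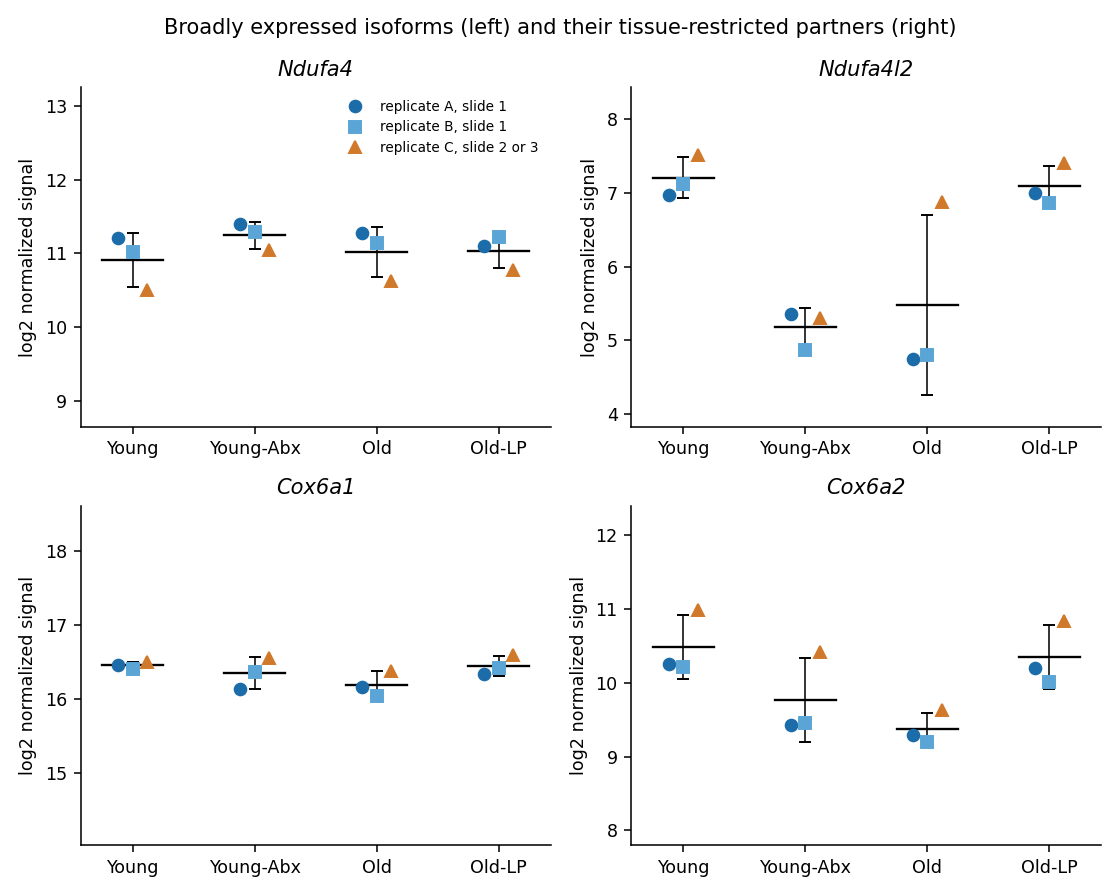
Log2 normalized signal of Ndufa4 and Cox6a1 (left) and of their tissue-restricted partners Ndufa4l2 and Cox6a2 (right) on each array, with group means (lines) and SD (bars, n = 3); circles and squares are replicates A and B on the first slide and triangles replicate C, and each panel spans the same number of log2 units. Ndufa4l2 lay between 4.75 and 5.36 in Young-Abx and Old except for Old replicate C at 6.88, and between 6.86 and 7.51 in Young and Old-LP.

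The mean level of Ndufa4l2 was 7.20 ± 0.28 (SD, n = 3) in Young, 5.18 ± 0.27 in Young-Abx, 5.48 ± 1.21 in Old and 7.09 ± 0.28 in Old-LP. The log2 difference over all arrays was -1.72 ± 0.50 (SE) for Old against Young (adjusted p = 0.319, limma), -2.02 for Young-Abx against Young (adjusted p = 0.271) and 1.61 for Old-LP against Old (adjusted p = 0.446). None of these passed the threshold. On the first slide alone, Ndufa4l2 fell by 2.27 ± 0.18 (SE, log2) in Old (adjusted p = 0.00130, limma), a 4.82-fold difference, and fell by 1.94 in Young-Abx (adjusted p = 0.00367). It rose by 2.15 in Old-LP against Old (adjusted p = 0.00184), a 4.43-fold difference. Between Old-LP and Young the difference on that slide was -0.12, with a 95% interval of -0.56 to 0.31. As the Old arrays enter both the first and the last of these comparisons, and Young both of those with Young, they are not independent of each other.

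Old replicate C decided whether Ndufa4l2 was called. Without that array, the difference over the remaining 11 was -2.42 for Old against Young (adjusted p = 0.00375, limma) and 2.31 for Old-LP against Old (adjusted p = 0.00642), and Young-Abx against Young was called too (-2.02, adjusted p = 0.00586). Young and Old-LP kept their replicate C, which read higher than A and B, so they were not balanced against Old. In Young-Abx against Young no array was left out and the difference did not change. The share of named genes called in this fit was not counted, so these calls have no background beside them. Before normalization, the spot's intensity on Old replicate C was 20.3, which was not well above background and was 1.17 times the lowest signal that was so on this array. It was 45.0 and 39.2 on Old replicates A and B and 216 and 270 on Young A and B, all well above background. Young-Abx replicate C was the other array on which the spot was not well above background, with an intensity of 18.1. With a background correction that adds an offset of 50 to the signal, the differences over all arrays shrank to -0.90, -1.02 and 0.79 (adjusted p = 0.129, 0.106 and 0.249). With the slide as a block in the fit to all arrays, Ndufa4l2 was called in all 3 comparisons (adjusted p = 0.0230, 0.0189 and 0.0349, limma), as was Cox6a2, where 3.82%, 2.88% and 4.48% of named genes were called. The C arrays of Old and Young lay on different slides, so under this block they gave no direct comparison of these groups. The call for Old against Young is thus not independent of the first-slide result.

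On the first slide Cox6a2 had the same order of group levels as Ndufa4l2, with smaller differences. Its levels were 10.26, 10.21 and 10.99 in Young and 9.43, 9.45 and 10.43 in Young-Abx. Old gave 9.30, 9.20 and 9.63 and Old-LP 10.21, 10.02 and 10.84. Every Old array lay below every Young and Old-LP array, and within each replicate letter Young-Abx lay between Old and Young. The signal was well above background on all 12 arrays. Over all arrays the log2 difference was -1.11 ± 0.36 (SE) for Old against Young (adjusted p = 0.423, limma), -0.72 for Young-Abx against Young (adjusted p = 1.00) and 0.98 for Old-LP against Old (adjusted p = 0.650), so none passed. On the first slide alone, Cox6a2 fell by 0.99 ± 0.10 in Old (adjusted p = 0.00358), a 1.98-fold difference, and by 0.80 in Young-Abx (adjusted p = 0.0113), and rose by 0.86 in Old-LP against Old (adjusted p = 0.00650). With the replicate letter as a block, Cox6a2 was called for Old against Young (adjusted p = 0.0114, limma) and Old-LP against Old (adjusted p = 0.0243), but not for Young-Abx against Young (adjusted p = 0.105), where the share of named genes called was 3.06%, 2.38% and 1.38%.

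On the first slide, these 2 genes were all of the members called, 2 of 69 in each of Old against Young, Young-Abx against Young and Old-LP against Old. The share of all named genes called there was 11.4%, 7.87% and 10.7%, and in the direction of the 2 members 6.12%, 3.52% and 5.62%, so the count of members (2.90%) lay below the background in all 3 comparisons. The same 2 genes were called in Old-LP against Young-Abx on that slide (background 6.55%, and 2.75% higher), both higher in Old-LP, by 1.81 for Ndufa4l2 and 0.67 for Cox6a2.

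Levels of markers of other marrow cells varied across the same groups. The summed level (log2) of 9 neutrophil and precursor markers, which include Elane, Mpo and Camp, ranged from 14.24 to 14.45 in Young, 13.47 to 14.08 in Young-Abx, 12.89 to 15.75 in Old and 14.53 to 15.14 in Old-LP, and the highest Old value was that of replicate C. Of the 9, 7 were lower in Old and 7 in Young-Abx than in Young and 7 higher in Old-LP than in Old, whereas Camp was called higher in Old and Young-Abx than in Young (2.71 and 2.47). The 7 mast cell and basophil markers summed to 14.36 to 14.42 in Young, 14.07 to 14.09 in Young-Abx, 13.56 to 13.65 in Old and 14.50 to 14.56 in Old-LP on the first slide. All C arrays read higher for this list, at 15.42 in Young, 15.39 in Young-Abx, 15.77 in Old and 15.17 in Old-LP. For 5 B cell markers the sums were 12.52 to 12.57, 11.84 to 11.91, 11.60 to 11.68 and 12.52 to 12.67 on that slide in the same order, and 12.65, 12.32, 14.02 and 12.77 on the C arrays. Those of 5 T cell markers ranged from 13.12 to 13.32 in Young, 12.85 to 13.45 in Young-Abx, 11.80 to 12.53 in Old and 12.92 to 13.12 in Old-LP. Markers of megakaryocytes and erythroid cells (9 genes) gave 15.99 to 16.07 in Young, 16.31 to 16.57 in Young-Abx, 16.43 to 16.59 in Old and 16.00 to 16.15 in Old-LP on the first slide, and 15.27, 15.51, 15.58 and 15.46 on the C arrays. The members of this list did not share a direction, with 5 higher and 4 lower in both Old and Young-Abx than in Young and 4 higher and 5 lower in Old-LP than in Old. Epor, the erythropoietin receptor, and Gp9, a platelet glycoprotein, were called higher in Old than in Young (2.05 and 2.36) and in Young-Abx than in Young (1.88 and 2.27), and Epor lower in Old-LP than in Old (-1.90), whereas the beta globin Hbb-bt differed by -2.69 ± 1.29 for Old against Young (adjusted p = 0.896, limma). The dendritic cell markers summed to 18.39 to 18.79 over all arrays of Young and Young-Abx and 18.51 to 18.74 over those of Old and Old-LP, and the 8 macrophage markers to 17.04 to 17.73 over all arrays. Such a sum is carried by the brightest probes, and single markers of both lists differed by more, though none was called in Old against Young, Young-Abx against Young or Old-LP against Old. For Old against Young, H2-Aa and H2-Ab1, the chains of an MHC class II molecule, differed by -1.04 ± 0.47 and 0.79 ± 0.38, the costimulatory Cd86 by -0.59 ± 0.18 (adjusted p = 0.341, limma) and the macrophage Fc receptor Fcgr1 by -1.24 ± 0.27 (adjusted p = 0.111), and for Old-LP against Old H2-Aa differed by 1.30 and Fcgr1 by 0.98. On the first slide, 10 of 12 dendritic cell markers were lower in Old than in Young and 10 of 12 higher in Old-LP than in Old, against 6 and 7 over all arrays. In these bulk samples, fewer cells of a type and less RNA per cell cannot be told apart, and the part of these cells in the levels of Ndufa4l2 and Cox6a2 was not tested.

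The common partners of both genes, and the other isoform families, had differences closer to 0. Ndufa4, now known as a complex IV subunit in spite of its name and counted here by its prefix, differed by 0.10 ± 0.27 (SE, log2) for Old against Young and 0.33 for Young-Abx against Young. It was the highest of complex I in the former. Cox6a1 differed by -0.26 ± 0.20 for Old against Young and by 0.26 for Old-LP against Old, and its 3 Old arrays (16.17, 16.03 and 16.38) lay just under those of Young (16.46, 16.41 and 16.50). Cox4i1, the usual form of the largest nuclear-encoded complex IV subunit, differed by -0.03, 0.02 and 0.12 in Old against Young, Young-Abx against Young and Old-LP against Old. Its lung-type form Cox4i2 differed by 0.17, -0.02 and -0.41. Cox6b1 differed by 0.02, 0.01 and -0.13, and the testis form Cox6b2 by 0.51, 0.15 and -0.50, the latter being the lowest of complex IV in Old-LP against Old. Its values were 8.10, 7.79 and 9.13 in Old against 7.64, 7.57 and 8.26 in Young, which overlapped.

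Of the Cox7 and Cox8 families, no gene passed the test. Cox7a1, the muscle form, differed by -0.04 ± 0.52 for Old against Young, Cox7a2, the liver form, by -0.10 ± 0.56, and Cox7a2l by -0.10 ± 0.20. The broadly expressed Cox7b and Cox8a differed by -0.21 ± 0.83 and -0.04 ± 0.26. Cox8c had the highest difference of complex IV in Old against Young (0.89) and in Young-Abx against Young (0.72), but the gene was not well above background on any array, as with Cox7b2 and Cox8b, so these values have no order and no fold is given. When the 8 tissue-restricted isoforms (Ndufa4l2, Cox4i2, Cox6a2, Cox6b2, Cox7a1, Cox7b2, Cox8b and Cox8c) were set aside, the differences of the other 61 genes for Old against Young lay between -0.47 and 0.14, all of them within 0.5 of 0. For Young-Abx against Young they lay between -0.52 and 0.40, with 60 of 61 within 0.5. For Old-LP against Old they lay between -0.25 and 0.80, with 59 of 61 within 0.5. Among named genes well above background on all arrays, 85.3%, 88.7% and 82.9% lay within 0.5 in these comparisons. Ndufa4l2 and Cox6a2, with the largest differences among members above background, were among the genes set aside.

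Promoter sequences were examined for what broadly expressed members and restricted isoforms share. RefSeq windows (mouse assembly GRCm38.p6, 250 bases before to 50 after the start) were given for 54 of 69 members, and were searched on both strands for motifs of factors known to drive respiratory genes. The NRF1 core GCGCATGCG lay in 5 of 54 windows (9.26%, against 1.81% of the windows of all 27025 genes in the table) and its looser form GCNTGCGC, which every core match also fits, in 15 (27.8% against 10.1%). The YY1 motif AAGATGGC was found in 7 windows (13.0% against 2.88%), all of complex I genes. Complex I held 34 of the 54 windows, and complexes II, III and IV held 3, 5 and 12. The ETS or GABP motif CCGGAAGT was found in 4 (7.41% against 4.00%), CCAAT in 21 (38.9% against 37.9%) and TATAAA in 6 (11.1% against 14.2%). Of the restricted isoforms, 4 had a window (Cox6b2, Cox7a1, Cox7b2 and Cox8b), and none of these held an NRF1, YY1 or ETS match. With 4 windows and motifs this rare among all genes, such an absence says little. CCAAT lay in 3 of the 4 and TATAAA in 2, against 18 and 4 of the other 50. The median GC content of the 4 was 50.8%, against 58.7% in the other 50 members and 52.7% in all genes. The median ratio of observed to expected CpG was 0.38, 0.83 and 0.39 in the same order. Windows of Cox4i1, Cox4i2, Cox6a2, Cox6c, Cox8c, Ndufa11b, Ndufa2, Ndufa4l2, Ndufb9, Ndufs1, Sdhc, Uqcrb, Uqcrc2 and Uqcrq were not used here.

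The following windows are those of Cox6a1, Uqcrh and Sdhd, broadly expressed members whose Old arrays did not overlap with Young, and of Cox8b, a restricted isoform not above background in these cells. Capitals mark the NRF1 matches in Cox6a1 (chr5:115348909-115349208) and Sdhd (chr9:50603800-50604099), the ETS match in Uqcrh (chr4:116075021-116075320) and the TATAAA match in Cox8b (chr7:140900397-140900696), which begins at base 5 counted from the annotated start as 1, thus downstream of it, with all 4 genes on the minus strand of GRCm38.p6 and written 5′ to 3′.
Cox6a1: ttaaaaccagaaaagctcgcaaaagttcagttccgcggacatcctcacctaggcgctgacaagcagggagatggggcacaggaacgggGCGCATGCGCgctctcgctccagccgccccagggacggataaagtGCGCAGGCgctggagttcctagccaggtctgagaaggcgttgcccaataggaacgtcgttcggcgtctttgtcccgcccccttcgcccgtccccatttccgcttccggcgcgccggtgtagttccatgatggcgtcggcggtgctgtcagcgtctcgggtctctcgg
Uqcrh: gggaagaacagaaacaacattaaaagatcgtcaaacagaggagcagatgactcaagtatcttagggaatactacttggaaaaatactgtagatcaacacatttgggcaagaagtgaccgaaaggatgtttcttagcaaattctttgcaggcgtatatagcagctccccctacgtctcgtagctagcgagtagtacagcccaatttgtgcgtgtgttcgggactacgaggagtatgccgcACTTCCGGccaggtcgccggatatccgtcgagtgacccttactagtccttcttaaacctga
Sdhd: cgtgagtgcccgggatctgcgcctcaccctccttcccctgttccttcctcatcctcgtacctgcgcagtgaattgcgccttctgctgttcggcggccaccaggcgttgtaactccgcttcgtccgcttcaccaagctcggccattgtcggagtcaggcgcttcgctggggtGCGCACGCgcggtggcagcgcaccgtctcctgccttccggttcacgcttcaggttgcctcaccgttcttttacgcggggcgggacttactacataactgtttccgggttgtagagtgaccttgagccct
Cox8b: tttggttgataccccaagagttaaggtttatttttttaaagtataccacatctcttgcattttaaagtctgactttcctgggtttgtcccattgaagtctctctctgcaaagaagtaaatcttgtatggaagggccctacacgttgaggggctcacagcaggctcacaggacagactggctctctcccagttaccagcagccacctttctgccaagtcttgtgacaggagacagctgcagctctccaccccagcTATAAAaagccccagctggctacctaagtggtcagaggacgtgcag

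Complex by complex, the medians lay close to those of all genes. For Old against Young the median log2 difference was -0.068 in complex I (11 genes higher, 29 lower), -0.093 in complex II (1 and 3), -0.11 in complex III (0 and 8) and -0.030 in complex IV (8 and 9), and 0.0026 over all named genes. Over named genes well above background on all arrays the median was -0.025, with 5800 of 10702 lower. The median over all 69 was -0.064, with 65 of them (94.2%) within 0.5 of 0, against 74.1% of named genes and 85.3% of those well above background on all arrays. For Young-Abx against Young the medians were 0.0087, -0.018, 0.029 and 0.049 for complexes I to IV, and -0.0093 over all named genes. For Old-LP against Old they were 0.11, 0.040, 0.15 and 0.11, with 53 of 69 higher, and 0.011 over all named genes and 0.051 over those well above background on all arrays. Of the latter, 6110 of 10702 were higher. For Old-LP against Young the median over all members was 0.013 (39 higher and 30 lower). When arrays were shifted to their 75th percentile in place of quantile normalization, the median of complex IV changed sign for Old against Young (0.077) and Old-LP against Old (-0.059), and those of complexes I, III and IV for Young-Abx against Young (-0.068, -0.056 and -0.022). In the authors' log2 table, those of complexes III and IV for Young-Abx against Young were below 0 as well (-0.012 and -0.024). Genes of a complex share arrays and are not replicates, so these medians carry no test.

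**Figure D2:**
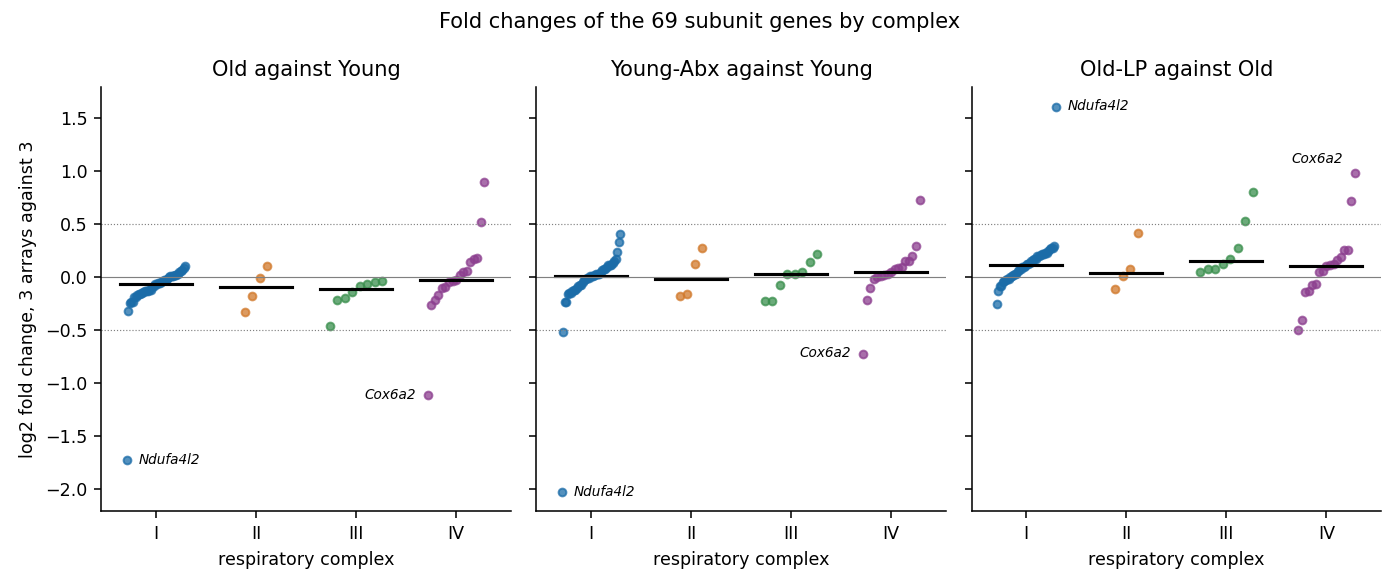
Log2 fold change over 3 arrays against 3 of each of the 69 subunit genes, ordered by size within its complex (x axis), with the median of the complex as a bar and dotted lines at 0.5 and -0.5. Medians lay between -0.11 and 0.15 (that of complex IV turned sign under a 75th percentile shift, and for Young-Abx against Young those of complexes I and III too, with those of III and IV below 0 also in the authors' log2 table), and Ndufa4l2 and Cox6a2 were the lowest of complexes I and IV in the left and middle panels and the highest in the right panel.

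The medians for Old-LP against Old were smaller on the first slide, at 0.043 over all members against 0.11 over all arrays and 0.22 between the C arrays alone. For Old against Young they were -0.041, -0.064 and -0.12, and for Young-Abx against Young 0.029, 0.018 and -0.039. The C arrays of Old and Young lay on different slides, so age and slide cannot be told apart in the value between them (-0.12), whereas those of the other 2 comparisons shared a slide. Complex III followed the same pattern for Old-LP against Old and Old against Young. All 8 of its genes were lower in Old than in Young and higher in Old-LP than in Old over all arrays, but on the first slide 5 of 8 were lower and 7 of 8 higher.

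Within complex I, subunits of the catalytic core showed little difference between groups. Ndufs1, Ndufs3, Ndufs7, Ndufs8, Ndufv1 and Ndufv2, which carry the flavin and iron-sulphur clusters or bind close to them, differed for Old against Young by between -0.25 (Ndufs3) and 0.06 (Ndufs7), and for Old-LP against Old by between -0.13 (Ndufs7) and 0.19 (Ndufs3). Ndufs1, the largest of the core subunits, read -0.52 ± 0.33 for Young-Abx against Young, but 0.05 on the first slide. Its values were 12.28, 12.15 and 12.73 in Young and 12.21, 12.31 and 11.08 in Young-Abx, so the difference came from replicate C. The highest accessory subunit in Young-Abx was Ndufa2, at 0.40 ± 0.55. The lowest of complex I in Old-LP against Old was Ndufb11, at -0.25, for which the spot on Old-LP replicate C was left out as an outlier and the Old-LP mean rests on A and B, and on the first slide it read 0.03.

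In complex II the 4 genes did not share a direction at the probes read. For Old against Young, Sdha, the flavoprotein that oxidizes succinate, differed by -0.01 ± 0.42, and Sdhb, the iron-sulphur subunit, by 0.11 ± 0.20. The membrane anchors Sdhc and Sdhd differed by -0.18 ± 0.34 and -0.33 ± 0.22. Sdhd read 13.37, 13.28 and 13.65 in Young, 13.27, 13.11 and 12.93 in Old and 13.41, 13.36 and 13.78 in Old-LP. The Old arrays lay below all of the others in this set, yet the difference was not called for Old against Young (adjusted p = 1.00, limma) or Old-LP against Old (0.42, adjusted p = 0.988), and on the first slide it was -0.13 and 0.20. Sdhb was higher in every Young-Abx array (13.71, 13.61 and 13.82) than in every Young array (13.59, 13.47 and 13.27), by 0.27 (adjusted p = 1.00), and differed by -0.11 for Old-LP against Old. Its other probe had the opposite sign in each comparison. It read -0.11 for Old against Young, -0.04 for Young-Abx against Young and 0.14 for Old-LP against Old. The direction of Sdhb thus depended on the probe. The other, dimmer probe of Sdha read -0.20 for Old against Young and 0.45 for Old-LP against Old (0.0062 at the probe read). For Young-Abx against Young it read -0.20, against 0.12 at the probe read. With the other probes of Sdha and Sdhb, all 4 genes were lower in Old than in Young and higher in Old-LP than in Old.

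In complex III, Uqcrh, the acidic hinge protein that helps cytochrome c dock, had the largest difference in Old. It read 15.52, 15.60 and 15.73 in Young, 15.24, 15.49 and 15.45 in Young-Abx, 15.14, 15.17 and 15.16 in Old and 15.52, 15.55 and 15.97 in Old-LP. The Old arrays were the 3 lowest of all 12, and Young-Abx lay between Old and Young without overlap. The difference was -0.47 ± 0.20 for Old against Young (adjusted p = 0.795, limma) and 0.52 for Old-LP against Old (adjusted p = 0.713), and on the first slide -0.41 (adjusted p = 0.0839) and 0.38 (adjusted p = 0.109). The size was about 1.38-fold and 1.44-fold over all arrays and did not pass the threshold in either fit. The core proteins Uqcrc1 and Uqcrc2 differed by -0.05 and -0.06 for Old against Young, and the Rieske protein Uqcrfs1 by -0.19. Uqcrq had the smallest change of complex III in Old (-0.04) and in Old-LP against Old (0.05). Uqcrb, the highest of complex III in Young-Abx (0.21) and in Old-LP against Old (0.80 ± 0.57), read 13.47 on Old-LP replicate C, but 11.57 on Young and 11.12 on Old replicate C, and the difference on the first slide was 0.02. Its other probe gave -0.02 for Old-LP against Old.

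Arrays did not overlap between Old and Young for 6 of 69 members (Cox6a1, Cox6a2, Ndufa4l2, Ndufb9, Sdhd and Uqcrh, all lower in Old), to be read beside 10.7% of named genes, 5.62% lower. Between Young-Abx and Young they did not overlap for 3 (Ndufa4l2 and Uqcrh lower, Sdhb higher, background 10.7%) and between Old-LP and Old for 4 (Cox6a2, Cox7a2l, Sdhd and Uqcrh, all higher, where 10.5% of named genes did not overlap and 6.14% were higher). No member separated Old-LP from Young (4.49% of named genes). Between Old and Young-Abx, Cox7a2l, Ndufb9 and Uqcrh were lower in Old without overlap (5.51% of named genes, 3.65% lower), and between Old-LP and Young-Abx Ndufa4l2 and Uqcrh were higher and Sdhb lower (10.3%). Sdhb is counted here at its brighter probe, and its other probe differed by -0.04 for Young-Abx against Young.

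The precision of these statements was set by replicate C. Replicate C differed from the mean of A and B by a mean over groups of -3.00 (Cox6c) to 1.75 (Uqcrc1), in the same direction in all groups for 59 members, 40 of them higher and 19 lower. Its median size was 0.74, against 0.08 for the difference between A and B. Cox6c, a small complex IV subunit, illustrates this, at 13.80 and 13.77 on Young A and B and 10.36 on Young C, and 13.72, 13.76 and 10.59 in Old. In consequence the median SE of a log2 fold change was 0.38 over all arrays and 0.10 on the first slide. Over all arrays the 95% interval of Old against Young lay within 1 log2 unit of 0 for 37 of 69 members, so that a change of 2-fold was not excluded by it for the others. On the first slide it lay within 1 for 66 and within 0.5 for 57.

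**Figure D3:**
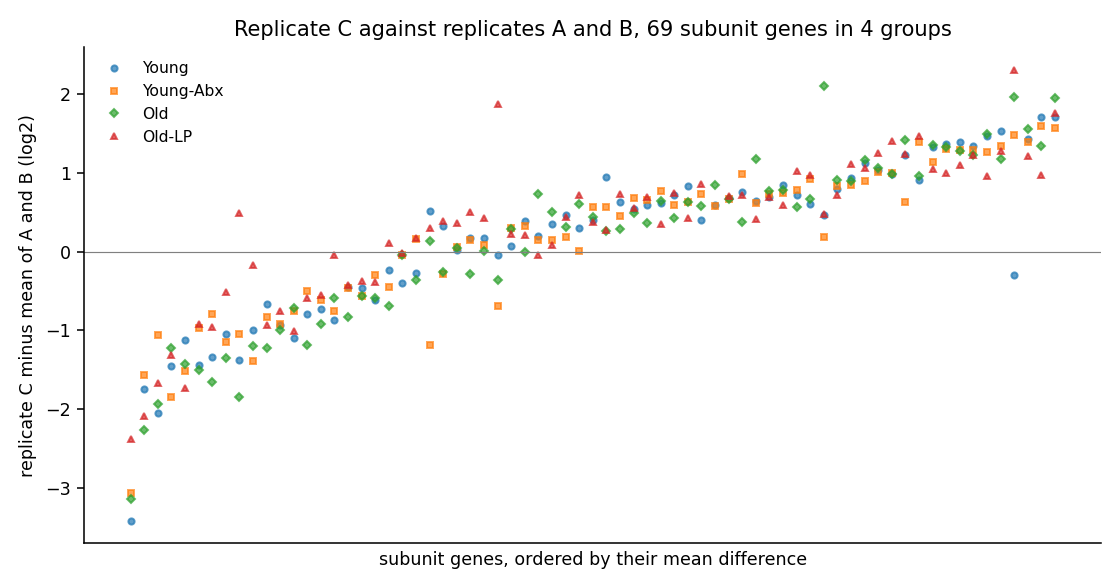
Difference between replicate C and the mean of replicates A and B (log2) in each of the 4 groups, for the 69 subunit genes ordered by their mean difference, from -3.00 (Cox6c) to 1.75 (Uqcrc1). The groups mostly lie together for a gene, and 59 genes have the same sign in all of them (for Ndufb11 in the 3 groups without its missing Old-LP reading).

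**Figure D4:**
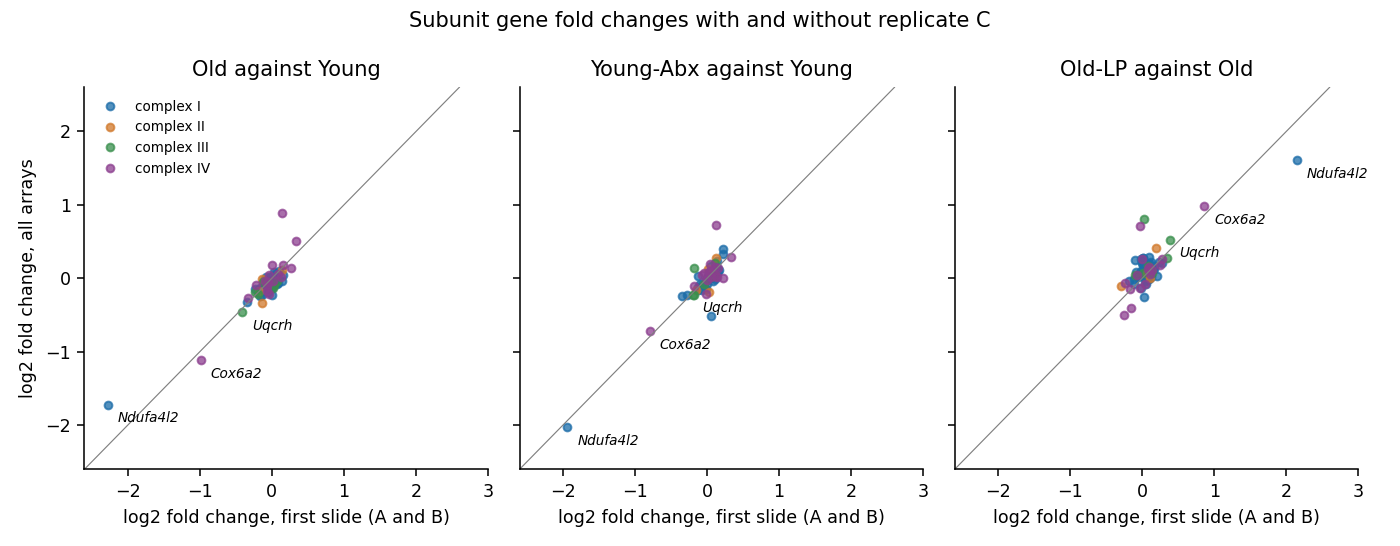
Log2 fold change over all arrays (y axis) against that on the first slide alone (x axis) for the 69 subunit genes, coloured by complex, with the line of equality. Ndufa4l2 (-2.27 and -1.72 for Old against Young) lies apart from the other members on both axes in all 3 panels. Cox6a2 (-0.99 and -1.11) lies apart on the first slide. Over all arrays it is less apart, with Uqcrb at 0.80 for Old-LP against Old and Cox8c at 0.72 for Young-Abx against Young.

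Other genes of oxidative phosphorylation were read from lists of the same pathway. None of 43 assembly factors, 10 coenzyme Q synthesis genes, 17 ATP synthase genes, 14 regulators of mitochondrial gene expression or the pair Cycs and Cyc1 was called in Old against Young, Young-Abx against Young or Old-LP against Old. The median for Old against Young was -0.028 for assembly factors, -0.13 for ATP synthase (2 higher and 15 lower), 0.028 for regulators and 0.0038 for coenzyme Q synthesis. For Old-LP against Old, all 17 ATP synthase genes were higher, with a median of 0.18 and a range of 0.012 to 0.47, where 12410 of 24232 named genes and 6110 of the 10702 well above background on all arrays were higher. The ATP synthase median was 0.15 on the first slide (16 of 17 higher) and 0.19 between the C arrays. Assembly factors had a median of 0.11 over all arrays, but -0.022 on the first slide and 0.21 between the C arrays. Among the regulators, Hif1a, which acts under low oxygen, differed by 0.27 ± 0.29 for Old against Young, by 0.49 ± 0.29 for Young-Abx against Young and by -0.26 for Old-LP against Old, none of them called. Tfam, which maintains mitochondrial DNA, differed by -0.11 ± 0.27 for Old against Young and 0.25 for Old-LP against Old, and Nrf1 by 0.07 ± 0.54 and 0.18. Coq8a, of coenzyme Q synthesis, was the only gene of these 5 lists to pass an unadjusted p of 0.05 at the fold change threshold in the 3 comparisons (0.55 ± 0.18 for Old against Young, adjusted p = 0.471, limma). None of 11 mitochondrially encoded subunits had a named probe, so their level against the nuclear-encoded subunits was not examined here.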

How the data were processed

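RNA of 12 BMDC cultures was hybridised to Agilent single-colour arrays. The authors deposited 2 kinds of values: the spot intensity written by Feature Extraction (12.1.1.1 in the file headers, 10.5 per the labels), background-subtracted and not normalized between arrays, and a log2 table of 46302 probes, whose columns follow the quantile-normalized median signal of their own arrays. The intensity was used. Of 59305 spots, 1068 outlier readings were set to missing, log2 values were quantile normalized, and spots were averaged to 56605 probes, of which 35405 were named through their accessions (24232 symbols). The build in the array headers differs from that of the naming table, so no array coordinates are printed. R 4.3.3 with limma 3.58.1 (lmFit and eBayes, 4 group means, 12 arrays) gave 6 comparisons, two-sided, with the study's thresholds, an adjusted p of 0.05 and an absolute log2 fold change of 0.5. The script was tested on simulated data. An exact permutation test of 3 against 3 cannot go below p = 0.1 and was not used.

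Alternatives were the replicate letter or slide as a block, the first slide alone, a 75th percentile shift, normexp background correction (offset 50, on the median signal, since the mean was not used here), a filter on dim probes, kept outliers, an intensity trend, only the compared arrays, the mean of probes, the authors' table, unadjusted p, Ndufa4 and Ndufa4l2 moved to complex IV and each array left out. Arrays with the same letter deviated together (r = 0.415 to 0.711 in 18 of 18 pairs), and the letters were taken to pair the groups, though A and B also deviated together (0.449 to 0.570) and chiefly C stood apart (-0.659 to -0.466). The members, lists, motifs and tests were chosen with earlier results of these data known. Genes named are every called member, the highest and lowest of each complex, complex II, core subunits and isoform families, and others were chosen after their values were seen. A member and a marker that the rule covers are not reported here by name. P-values measure the spread between arrays of a group, which may be technical, since the labels do not tie the letters to separate pools, and precision is bounded by having 3 arrays a group.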

Additional observations from a re-analysis of the deposited data

How the results depend on the processing

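Over all arrays no subunit gene was called in any comparison, and this count depended on how replicate C was treated. With the replicate letter as a block 1 gene was called in Old against Young and 1 in Old-LP against Old (Cox6a2 in each). With the slide as a block, and on the first slide alone, 2 were called in each of Old against Young, Young-Abx against Young and Old-LP against Old, and on the first slide alone 2 in Old-LP against Young-Abx (Cox6a2 and Ndufa4l2 throughout). At an unadjusted p the counts were 2, 1, 3 and 1 in these comparisons. Leaving out each array in turn gave 0 to 1 in these 4, with Ndufa4l2 called without Old replicate C, and 0 to 0 in Old-LP against Young and Old against Young-Abx. The share of named genes called with an array left out was not counted, so these counts have no background beside them. The replicate block changed no other call of members. The other alternatives, normalization, background correction and the dim-probe filter among them, gave 0 members in every comparison.

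The median of complex II in Young-Abx against Young (-0.018) was -0.078 with the 75th percentile shift, -0.099 with the mean of probes and 0.091 between the C arrays alone, a setting chosen after seeing the data. It rests on 4 genes. Leaving out 1 array gave -0.046 to 0.065 for it, and for complex III -0.30 to -0.077 in Old against Young (-0.30 without Old replicate C), -0.18 to 0.039 in Young-Abx against Young (-0.18 without Young-Abx replicate C) and 0.14 to 0.37 in Old-LP against Old (0.37 without Old-LP replicate B). Leaving out 1 array also took the medians of complexes I and IV across 0 in all 3 comparisons (for complex I -0.19 to 0.055 in Old against Young and -0.042 to 0.18 in Old-LP against Old). Without an array of a compared group, replicate C weighs unequally in the 2 groups, so these shifts include its offset from A and B. The Old against Young median of all members was 0.052 without Young replicate C and -0.17 without Old replicate C. On the balanced first slide it was -0.041. The lower signal over background on the C arrays limits genes near the floor, Ndufa4l2 included.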
